A study of Mus musculus with 24 samples.

Results

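The transcripts of 9 genes of the interleukin-1 family and the inflammasome, Il1a, Il1b, Il1rn, Il18, Nlrp3, Casp1, Casp4, Pycard and Il1rap, were followed in mouse macrophages stimulated through Toll-like receptors (TLRs). They were chosen by symbol in the probe table of the array, out of 13529 genes named there, and 18 of the 45281 probes measured them. The brightest detected probe stood for each gene. Of the 9, 8 passed the detection filter (at least 1 group in which both arrays had a detection p under 0.01) and entered the tests, which covered 8622 genes, and Pycard was not detected on any array.

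The cells were RAW264.7, a mouse macrophage-like line that carried no further genotype in the labels. They were stimulated for 1, 2 or 4 h with 100 ng/ml LPS, a ligand of TLR4, with 1 μM P3C, a lipopeptide ligand of TLR2, or with 1 μM R848, a small-molecule ligand of TLR7, and untreated cells were collected at the same times. Each of the 12 groups had 2 Illumina BeadChip arrays, labelled A and B, 24 in all, which the methods describe as biological duplicates of this 1 line. Signals are given as log2 of the quantile-normalized intensity, arrays A and B in that order, and a difference is in log2 units with its standard error (SE).

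Interleukin-1α and interleukin-1β are pro-inflammatory cytokines made as precursors, and interleukin-18 is a relative that is also stored as a precursor. In the inflammasome, a sensor such as NLRP3 joins through the adaptor ASC, encoded by Pycard, to caspase-1, which cleaves the precursors of interleukin-1β and interleukin-18. The mouse Casp4 gene encodes the enzyme also called caspase-11, which binds intracellular LPS in the noncanonical pathway. Il1rn encodes the interleukin-1 receptor antagonist, and Il1rap the accessory chain of the interleukin-1 receptor.

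Of the member promoters, 4 are shown to set the cytokines Il1a and Il1b and the sensor Nlrp3, undetected in untreated cells, beside Casp4, the caspase with the larger difference after 4 h of LPS. Each is the RefSeq promoter of build GRCm38.p6, 250 bases before to 50 bases after the annotated start, read 5′ to 3′ on the strand of the gene, with every match to a searched motif in capitals. All 9 genes matched that table, with 13 promoters in all.
Il1a (chr2:129309923-129310222, minus strand): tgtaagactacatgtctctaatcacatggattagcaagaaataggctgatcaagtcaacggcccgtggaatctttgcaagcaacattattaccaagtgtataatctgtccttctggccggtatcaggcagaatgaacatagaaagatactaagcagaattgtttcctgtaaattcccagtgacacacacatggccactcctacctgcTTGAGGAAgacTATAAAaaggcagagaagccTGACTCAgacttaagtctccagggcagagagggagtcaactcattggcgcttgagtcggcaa
Il1b (chr2:129371090-129371389, minus strand): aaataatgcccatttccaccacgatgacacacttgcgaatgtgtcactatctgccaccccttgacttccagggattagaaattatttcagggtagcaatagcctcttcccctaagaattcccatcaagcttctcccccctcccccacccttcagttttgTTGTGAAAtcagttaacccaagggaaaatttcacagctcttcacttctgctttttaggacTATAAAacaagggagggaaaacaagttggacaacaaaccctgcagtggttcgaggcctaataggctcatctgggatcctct
Nlrp3 (chr11:59541319-59541618, plus strand): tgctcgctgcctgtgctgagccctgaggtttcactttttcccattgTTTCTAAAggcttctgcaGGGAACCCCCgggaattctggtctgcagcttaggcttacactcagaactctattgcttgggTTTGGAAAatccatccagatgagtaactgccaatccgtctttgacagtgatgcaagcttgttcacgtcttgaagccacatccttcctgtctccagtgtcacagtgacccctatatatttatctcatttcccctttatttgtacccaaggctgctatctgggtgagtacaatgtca
Casp4 (chr9:5308599-5308898, plus strand): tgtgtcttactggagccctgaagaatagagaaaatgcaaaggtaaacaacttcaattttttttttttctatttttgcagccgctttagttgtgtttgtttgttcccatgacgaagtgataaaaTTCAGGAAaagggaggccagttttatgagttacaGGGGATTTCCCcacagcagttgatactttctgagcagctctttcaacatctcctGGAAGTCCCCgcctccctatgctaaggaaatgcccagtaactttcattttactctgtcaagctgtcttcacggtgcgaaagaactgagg

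The motifs were searched on both strands, and a match describes letters only. They were AP-1 (TGANTCA), C/EBP (TTNNGNAA), GAS (TTCNNNGAA), the TATA box (TATAAA), and, by name, the NF-κB consensus and the interferon-stimulated response element. Il1a held a C/EBP match starting at base -43 from the start, a TATA box at -32 and an AP-1 match at -12. Il1b held a C/EBP match at -91 and a TATA box at -31. The first Nlrp3 promoter held an NF-κB match at -186 and C/EBP matches at -204 and -125, while the first Casp4 promoter held overlapping NF-κB matches at -93 and -92, another at -39, and a C/EBP match at -127. Over all 32851 promoters of the same length, 8.46% held the NF-κB consensus against 3 of the 13 member promoters, of which the 2 of Casp4 overlap each other. The C/EBP letters occurred in 9 of 13 member promoters and 40.7% of all promoters, the TATA box in 4 of 13 and 13.6%, AP-1 in 2 of 13 and 7.81%, the interferon element in 1 of 13 (Il1rap) and 3.44%, and GAS in 0 of 13 and 8.3%. The member promoters with C/EBP letters belong to 6 of the 9 genes, and include overlapping promoters of Il1rn and of Casp4. None of these letters occurred in the Casp1 window.

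The array medians ran from 95.8 to 115 intensity units, and 12299 to 13917 probes an array had a detection p under 0.01. Probes passed detection at a log2 signal of about 6.86 to 6.94. The arrays lay on 10 slides of 1 to 4 arrays, none of them with treated and untreated cells of the same time. On 5 slides, treated arrays lay beside an untreated array of another time, and all 51 within-slide values for called differences of the members from untreated cells had the sign of the called difference. These values, a comparison added after seeing the data, ran from 3.06 to 6.72 for Il1b, 1.18 to 5.32 for Il1a and 0.46 to 1.59 for Nlrp3. They reuse the treated arrays that gave the calls. Il1a, Il1b and Nlrp3 were below detection on every untreated array, so the sign of their values could hardly differ. Treated arrays at 1 h of R848 shared no slide with an untreated array. Of 8 macrophage markers, 6 were detected on all 24 arrays (Lyz2 at 13.97 to 14.43, Cd68 at 12.28 to 12.87), with Fcgr1 on 23 and Itgam on 17. Several of them varied, Csf1r at 9.49 to 11.51 on treated and 10.24 to 11.57 on untreated arrays, Fcgr1 at 6.88 to 9.72 and 7.79 to 8.29, Spi1 at 9.09 to 10.61 and 9.08 to 9.6, and Cd14 at 14 to 14.43 and 13.53 to 13.87. The mean of all 8 markers, as a log2 signal, was 10.32 to 10.68 on treated arrays and 10.35 to 10.64 on untreated arrays. For each other cell type only 2 of the chosen markers were measured. Those of T cells, B cells and fibroblasts were detected on no array. Of the neutrophil and epithelial markers S100a8 was detected on 24 arrays (6.95 to 7.48), Krt8 on 5 and Elane on 1. These are bulk RNA measurements, in which fewer cells expressing a gene and less RNA of it per cell cannot be told apart.

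After LPS, more members were higher at each later time. At 1 h, 4 of the 8 tested members were called higher than in untreated cells, with 2.1% of all genes called higher, at 2 h 5 of 8 with 5.52%, and at 4 h 8 of 8 with 10.8%. Calls are limma tests with a Benjamini-Hochberg adjusted p under 0.05. After P3C the counts were 3 of 8 at 1 h (1.73% of all genes), 4 of 8 at 2 h (3.07%) and 5 of 8 at 4 h (5.4%). After R848 they were 4 of 8 at 1 h (2.03%), 4 of 8 at 2 h (3.34%) and 5 of 8 at 4 h (6.3%). No member was called lower with any ligand at any time, where 1.41%, 6.33% and 16% of all genes were called lower after 1, 2 and 4 h of LPS, 1.29%, 2.41% and 5.43% after P3C, and 1.38%, 3.24% and 6.38% after R848. Il1a, Il1b and Nlrp3 were detected on 0 of the 6 untreated arrays and passed the filter only through treated groups. A lower call was hardly possible for these genes, so the member counts and the shares over all genes are not on an equal footing. The median difference over the tested members at 4 h was 1.97 with LPS, 0.98 with P3C and 1.03 with R848, beside medians over all genes of -0.061, -0.024 and -0.026. The ligands share the untreated arrays of each time, so their counts are not independent of each other.

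**Figure D1:**
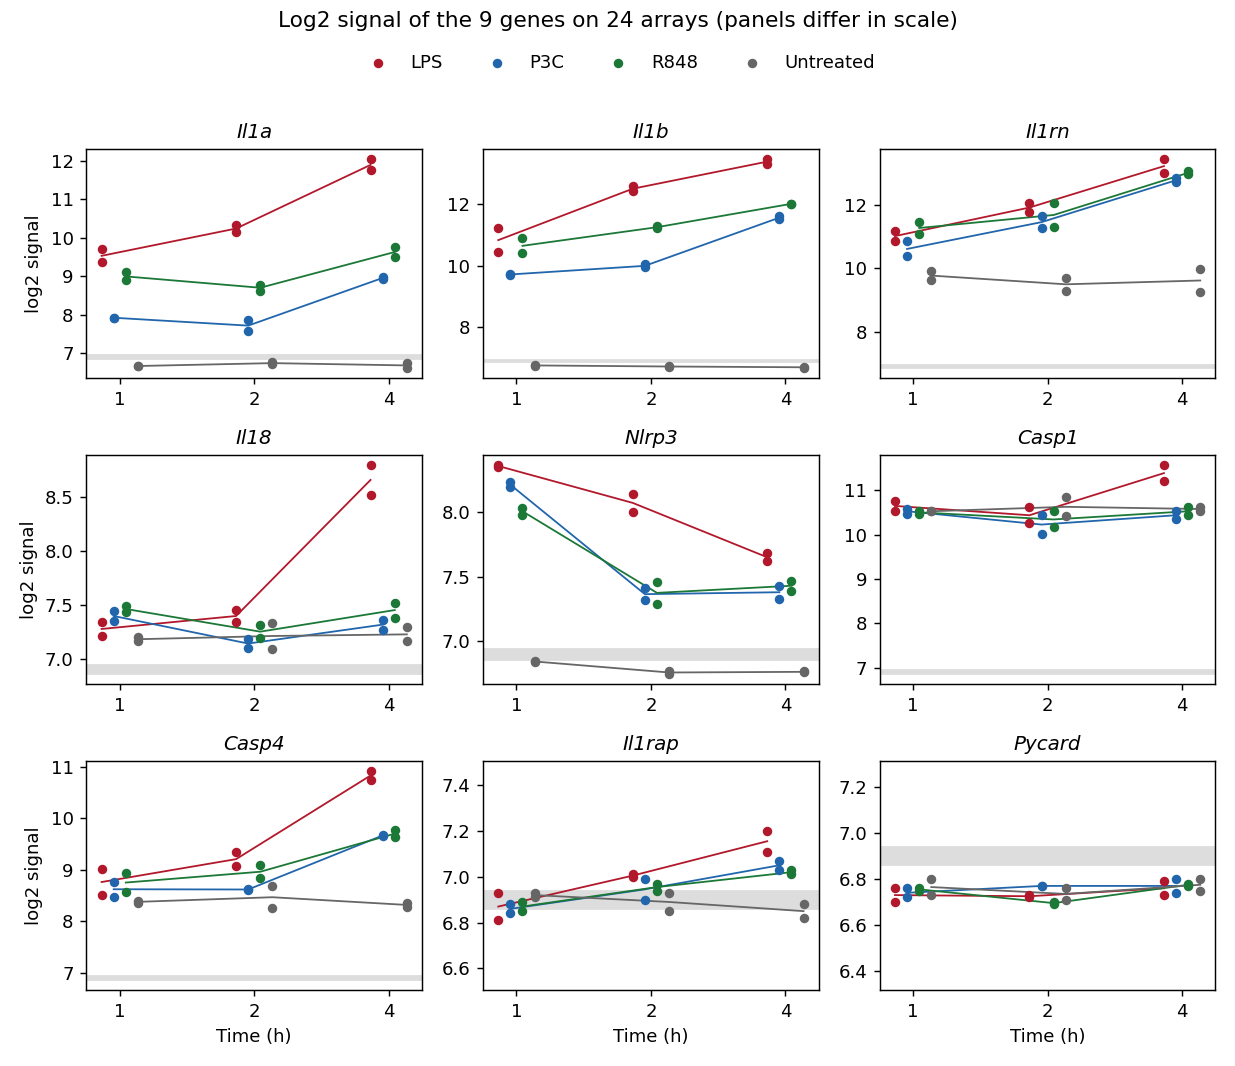
Log2 signal of the 9 genes against time (1, 2 and 4 h, evenly spaced), with 1 point per array, lines through the mean of 2 arrays, colours for LPS, P3C, R848 and untreated cells, and a grey band at the level where probes pass detection. Il1a, Il1b and Nlrp3 lie above the band in treated cells and below it in untreated cells. Il18 and Casp1 have their highest signals after 4 h of LPS, and Pycard stays below the band.

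**Figure D2:**
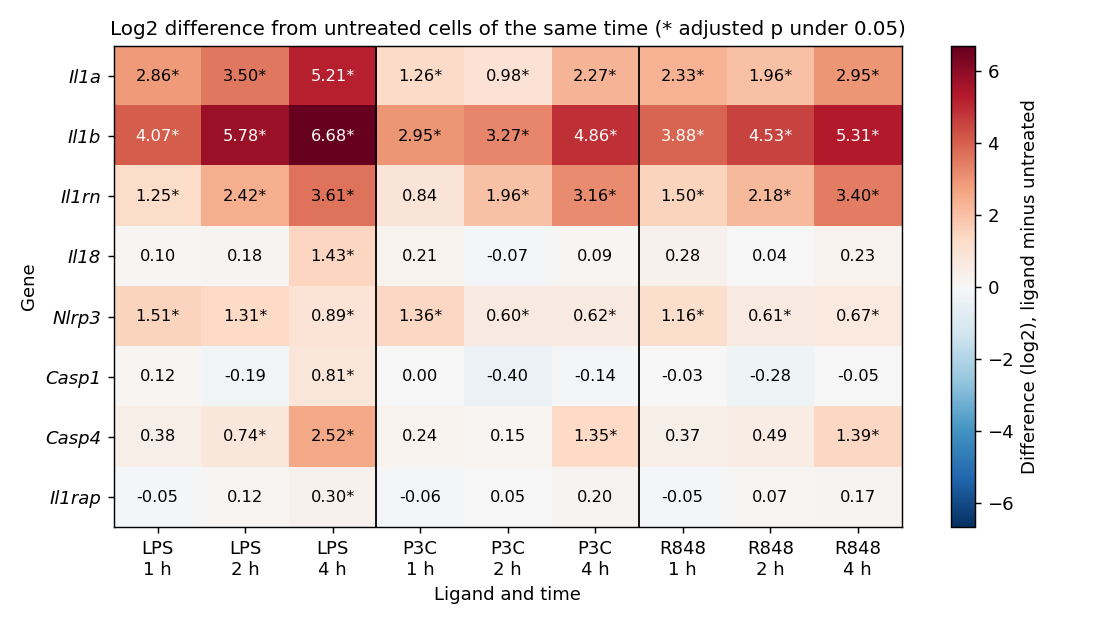
Difference in log2 signal between ligand-treated and untreated cells of the same time for the 8 tested genes (rows) by ligand and time (columns), with an asterisk for an adjusted p under 0.05. LPS at 4 h is called for all 8 genes, and no value with an asterisk is below 0.

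Il1b, the interleukin-1β precursor gene, was not detected on any of the 6 untreated arrays and was called higher with every ligand at every time. With LPS it read 11.21 and 10.44 at 1 h, then 12.42 and 12.57 at 2 h, then 13.3 and 13.45 at 4 h. With P3C it read 9.68 and 9.74, then 10.04 and 9.94, then 11.51 and 11.6, and with R848 10.88 and 10.4, then 11.28 and 11.21, then 12 and 12.01. The untreated arrays lay between 6.68 and 6.78, so every treated array was above every untreated one. Because the gene was not detected in untreated cells, the folds are lower bounds, taken from the treated mean over the detection level of the untreated arrays. After LPS, Il1b was at least 15.4-fold higher at 1 h, 48.2-fold at 2 h and 89.9-fold at 4 h (adjusted p = 8.83e-10, 1.86e-11 and 6.31e-13, limma, n = 2 arrays per group). The bounds were 7.11-, 8.48- and 25.4-fold with P3C and 13.5-, 20.3- and 34.8-fold with R848, all called. The 2 LPS arrays at 1 h differed by 0.77, the widest gap between duplicates for this gene.

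Il1a, which encodes interleukin-1α, was likewise below detection on all 6 untreated arrays (6.62 to 6.76). With LPS it read 9.7 and 9.36 at 1 h, then 10.15 and 10.33 at 2 h, then 12.04 and 11.75 at 4 h. With P3C it read 7.92 and 7.92, then 7.58 and 7.85, then 8.99 and 8.92, and with R848 9.1 and 8.89, then 8.62 and 8.78, then 9.75 and 9.51. In contrast to LPS, both P3C and R848 gave 2 h arrays below their own 1 h arrays, a step for which no test was run. Il1a was at least 6.28-, 10.1- and 32.2-fold higher than in untreated cells at 1, 2 and 4 h of LPS (adjusted p = 1.1e-09, 1.65e-10 and 3.97e-13, limma). The bounds were 2.06-, 1.76- and 4.2-fold with P3C and 4.34-, 3.47- and 6.72-fold with R848. In a fit over all detected probes, a second Il1a probe gave the same directions in these comparisons with smaller differences, 4.05 for LPS at 4 h (SE 0.147), and missed the threshold for P3C at 2 h (0.53, adjusted p = 0.0535). With median scaling, in which each array is only shifted to a common median, the Il1a calls for P3C at 1 h (1.39, adjusted p = 0.0511) and 2 h (0.89, adjusted p = 0.474) were lost, the second also with only the arrays compared (0.98, adjusted p = 0.106).

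Il1rn, which encodes the receptor antagonist, was expressed in untreated cells and rose with all ligands by 2 h. With LPS it read 10.85 and 11.17 at 1 h, then 11.76 and 12.06 at 2 h, then 13.43 and 13 at 4 h. With P3C it read 10.84 and 10.37, then 11.25 and 11.65, then 12.83 and 12.71, and with R848 11.09 and 11.44, then 11.31 and 12.04, then 13.05 and 12.96. The untreated arrays read 9.63 and 9.9, 9.7 and 9.28, and 9.24 and 9.98, so the groups did not overlap at any time, although duplicates of this gene were up to 0.74 apart. The difference with LPS was 1.25 at 1 h (adjusted p = 0.0188), 2.42 at 2 h (adjusted p = 2.17e-05) and 3.61 at 4 h (12.2-fold, adjusted p = 1.06e-07), each with an SE of 0.279 in limma. For P3C it was 0.84 at 1 h, which missed the threshold (adjusted p = 0.164) but passed it with slide as a random block (1.1, adjusted p = 0.0198), then 1.96 and 3.16, and for R848 it was 1.5, 2.18 and 3.4. The LPS call at 1 h was lost without array B of LPS (1.08, adjusted p = 0.136) or either untreated array (1.11, adjusted p = 0.162 without A, and 1.38, adjusted p = 0.0648 without B). The R848 call at 1 h was lost without array B of R848 (1.32, adjusted p = 0.0796) or array A of the untreated cells (1.37, adjusted p = 0.0691). With only the arrays compared, the calls were lost for LPS at 1 h (1.25, adjusted p = 0.0715) and, at 2 h, for P3C (1.96, adjusted p = 0.0796) and R848 (2.18, adjusted p = 0.0578).

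The other Il1rn probes showed the same direction at lower signal. One was called in the same 8 of the 9 comparisons with untreated cells, at 3.41 for LPS, 2.79 for P3C and 3.17 for R848 at 4 h. The dimmest was undetected in untreated cells and was called for all ligands at 4 h (1.06 for LPS, 0.7 for P3C and 0.94 for R848) and for R848 at 2 h (0.52), and in none of the other 5 comparisons with untreated cells.

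Il18, in contrast to the other cytokines, was present at a low level in untreated cells and was called only after 4 h of LPS. It read 8.52 and 8.79 in LPS-treated cells at 4 h, 7.27 and 7.36 with P3C, 7.52 and 7.38 with R848, and 7.29 and 7.16 in untreated cells. The LPS arrays were above all others, the R848 arrays were above the untreated ones, and the P3C and untreated arrays overlapped. The difference was 1.43 for LPS (2.69-fold, SE 0.101, adjusted p = 3.85e-08, limma), 0.09 for P3C (adjusted p = 0.698) and 0.23 for R848 (adjusted p = 0.177), which against the 6 pooled untreated arrays was called (0.25, adjusted p = 0.035). Over the alternative settings the LPS difference ran from 1.09 to 2.38. The size of the fold thus depends on the processing, with untreated signals close above the detection level. At 1 and 2 h every treated array lay between 7.1 and 7.49, and no ligand was called. The second Il18 probe gave 0.83 for LPS at 4 h (SE 0.087, adjusted p = 3.51e-06) and no other call against untreated cells.

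Nlrp3, the inflammasome sensor, was below detection on all untreated arrays and differed from the cytokines in its time course, with its highest signals at 1 h. With LPS it read 8.35 and 8.36 at 1 h, then 8.14 and 8 at 2 h, then 7.68 and 7.62 at 4 h. With P3C it read 8.23 and 8.19, then 7.41 and 7.32, then 7.43 and 7.33, and with R848 8.03 and 7.98, then 7.29 and 7.46, then 7.39 and 7.47. Untreated arrays read 6.84 and 6.85 at 1 h, then 6.75 and 6.77 at 2 h, then 6.77 and 6.76 at 4 h, with no overlap with treated arrays. Nlrp3 was at least 2.78-fold higher at 1 h of LPS, 2.24-fold at 2 h and 1.7-fold at 4 h, 2.51-, 1.37- and 1.41-fold with P3C, and 2.18-, 1.38- and 1.46-fold with R848. The largest adjusted p among these was 5.72e-05 (P3C at 2 h, limma). With median scaling the P3C and R848 calls at 2 h (0.56, adjusted p = 0.767, and 0.45, adjusted p = 0.58) and 4 h (0.66, adjusted p = 0.192, and 0.7, adjusted p = 0.14) were lost. The 2 h calls were also lost when only the arrays compared were fitted (0.6, adjusted p = 0.204 for P3C, and 0.61, adjusted p = 0.146 for R848).

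Casp4, the noncanonical inflammasome caspase, was detected on every array and rose late. At 4 h it read 10.75 and 10.91 with LPS, 9.68 and 9.65 with P3C, 9.77 and 9.63 with R848, and 8.36 and 8.27 in untreated cells. LPS lay above the other ligands, and all 3 lay above untreated cells without overlap. The difference was 2.52 for LPS (5.72-fold, adjusted p = 4.05e-08), 1.35 for P3C (2.55-fold, adjusted p = 9.26e-05) and 1.39 for R848 (2.62-fold, adjusted p = 6.15e-05), each with an SE of 0.179 in limma. At 2 h only LPS was called, with 9.07 and 9.34 against 8.25 and 8.68 in untreated cells, a difference of 0.74 (adjusted p = 0.0121). This call was lost without array A of the untreated cells (0.53, adjusted p = 0.14), without array B of LPS (0.61, adjusted p = 0.0952), with median scaling (0.82, adjusted p = 0.362) and with only the arrays compared (0.74, adjusted p = 0.174). At 1 h the differences were 0.38 for LPS, 0.24 for P3C and 0.37 for R848, none called. A second Casp4 probe gave 1.62, 0.73 and 0.68 at 4 h of LPS, P3C and R848, all called, while the dimmest, detected on 9 of 24 arrays, gave 0.17 for LPS (adjusted p = 0.0949) and no call.

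Casp1, whose product cleaves the precursors of interleukin-1β and interleukin-18, was well expressed in untreated cells and was called only after 4 h of LPS. It read 11.21 and 11.56 with LPS at 4 h, 10.52 and 10.35 with P3C, 10.61 and 10.44 with R848, and 10.53 and 10.62 in untreated cells. The LPS arrays were above all others, with a difference of 0.81 (1.75-fold, SE 0.177, adjusted p = 0.00285, limma) that with median scaling was 0.46 (adjusted p = 0.247). At 1 and 2 h all differences lay between -0.40 and 0.12 and none was called. The group with the lowest mean was P3C at 2 h, whose arrays at 10.02 and 10.43 overlapped the untreated arrays of that time at 10.41 and 10.84.

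Pycard, which encodes ASC, read between 6.69 and 6.8 on the 24 arrays, and its smallest detection p was 0.0502. The treated and untreated arrays overlapped throughout, and no change could be measured at this signal. RAW264.7 cells are known from other work to lack ASC.

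Il1rap, the receptor accessory chain, lay close to the detection level on all arrays (6.81 to 7.2, detected on 16 of 24). At 4 h it read 7.11 and 7.2 with LPS, 7.03 and 7.07 with P3C, 7.03 and 7.01 with R848, and 6.82 and 6.88 in untreated cells. Detected on all 6 treated arrays and 1 of the 2 untreated arrays at this time, it was higher on every treated array, and LPS was called at 0.3 (SE 0.0619, adjusted p = 0.00171, limma), against 0.2 for P3C (adjusted p = 0.0507) and 0.17 for R848 (adjusted p = 0.0855). With median scaling the LPS difference was 0.17 (adjusted p = 0.203). With neqc background correction the differences for the other ligands were called, P3C at 0.7 (adjusted p = 0.0122) and R848 at 0.61 (adjusted p = 0.0251). Of the other 3 Il1rap probes, 1 was called for LPS at 4 h (0.26, adjusted p = 0.00963), 1 was not (0.12, adjusted p = 0.185), and 1 was detected on no array.

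**Figure D3:**
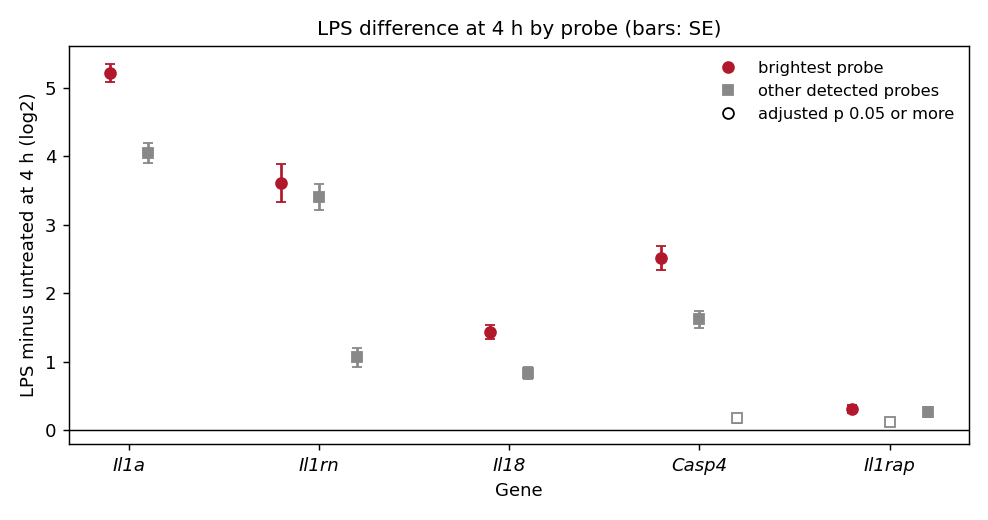
Difference between LPS-treated and untreated cells at 4 h for each detected probe of the 5 members with more than 1, with bars for the SE, circles for the brightest probe, squares for other probes and open symbols for an adjusted p of 0.05 or more. The brightest probe has the largest difference in each gene, and the dimmest Casp4 probe at 0.17 and 1 Il1rap probe at 0.12 are open.

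The ligands were next compared with each other at matched times, to ask where the TLR4, TLR2 and TLR7 responses differed. Between LPS and P3C, 2 of 8 members were called higher with LPS at 1 h (0.209% of all genes), 3 at 2 h (1.3%) and 6 at 4 h (4.08%). Between LPS and R848, 0 of 8 were called higher at 1 h (0.104%), 3 at 2 h (1.1%) and 5 at 4 h (3.46%). Between R848 and P3C, 1 was called higher with R848 at 1 h (0.0348%), 2 at 2 h (0.0232%) and 0 at 4 h (0%). No member was called lower in these 9 comparisons, which share arrays. Over all genes, 0%, 0.186% and 1.73% were called lower with LPS than with P3C at 1, 2 and 4 h, 0.0116%, 0.0928% and 1.23% lower with LPS than with R848, and 0% lower with R848 than with P3C.

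At 4 h the order of the levels of Il1a and Il1b was LPS, R848, P3C, with LPS above both others. Il1a was 7.67-fold higher with LPS than with P3C (difference 2.94, SE 0.133, adjusted p = 5.21e-10) and 4.79-fold higher than with R848 (2.26, adjusted p = 1.97e-08). Il1b was 3.54-fold higher than with P3C (1.82, SE 0.18, adjusted p = 5.51e-06) and 2.59-fold higher than with R848 (1.37, adjusted p = 0.00014). The neighbours R848 and P3C did not pass the test at 4 h in limma, with differences of 0.68 for Il1a (adjusted p = 0.736) and 0.45 for Il1b (adjusted p = 1), although their arrays did not overlap. With slide as a random block the Il1a difference between R848 and P3C at 4 h was called (adjusted p = 0.00992), as were Il1b between R848 and P3C at 1 h (0.95, adjusted p = 0.0202) and Nlrp3 between LPS and R848 at 4 h (0.22, adjusted p = 0.0358).

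Casp4, Il18 and Casp1 were also higher with LPS at 4 h. The differences from P3C and from R848 were 1.17 and 1.13 for Casp4 (adjusted p = 0.000551 and 0.000884), 1.34 and 1.2 for Il18 (adjusted p = 2.73e-07 and 1.14e-06) and 0.95 and 0.86 for Casp1 (adjusted p = 0.00314 and 0.0075, limma). Both Casp1 calls were lost without array B of LPS (0.77, adjusted p = 0.0641, against P3C, and 0.68, adjusted p = 0.132, against R848), and that against R848 without array B of R848 (0.77, adjusted p = 0.0987). Nlrp3 was higher with LPS than with P3C by 0.27 at 4 h (adjusted p = 0.0316), a call that was lost without any single one of the 4 arrays (0.22 to 0.32, adjusted p = 0.0636 to 0.283). For Il1rn the differences at 4 h were 0.45 (LPS against P3C), 0.21 (LPS against R848) and 0.24 (R848 against P3C), each with an SE of 0.279 and none called. With median scaling the LPS calls at 4 h that held were Il1a and Il18 against each of the other ligands, and Casp4, Il1b and Casp1 missed the threshold against both, with Nlrp3 against P3C.

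**Figure D4:**
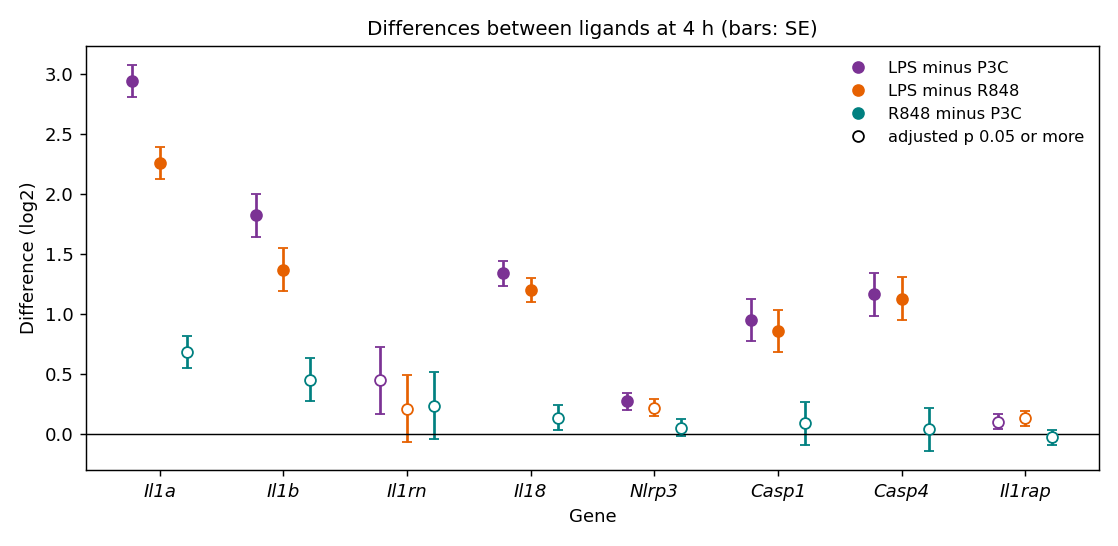
Differences in log2 signal at 4 h between LPS and P3C, LPS and R848, and R848 and P3C for the 8 tested genes, with bars for the SE and open symbols for an adjusted p of 0.05 or more. Il1a, Il1b, Casp4, Il18 and Casp1 are filled in both comparisons with LPS, Il1rn and Il1rap in none, and R848 against P3C in none.

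At earlier times the differences between ligands lay in Il1a, Il1b and Nlrp3. At 1 h, Il1a was higher with LPS than with P3C (1.61, adjusted p = 2.61e-05) and with R848 than with P3C (1.07, adjusted p = 0.00367), whereas LPS against R848 gave 0.53 (adjusted p = 0.562). Il1b was higher with LPS than with P3C at 1 h by 1.11 (adjusted p = 0.0108, limma), a call lost without array A of LPS (0.73, adjusted p = 0.0689) or either P3C array (1.09, adjusted p = 0.178 without A, and 1.14, adjusted p = 0.112 without B). The Il1a difference between R848 and P3C at 1 h was lost without either P3C array (adjusted p = 0.0837 without A and 0.0869 without B) or array A of R848 (0.97, adjusted p = 0.102).

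At 2 h, LPS exceeded P3C and R848 in Il1a (2.53 and 1.54, adjusted p = 5.05e-08 and 6.27e-06), Il1b (2.51 and 1.25, adjusted p = 4.83e-07 and 0.000961) and Nlrp3 (0.71 and 0.69, adjusted p = 1.89e-05 and 2.57e-05, limma). Nlrp3 read 8.14 and 8 with LPS at that time, 7.41 and 7.32 with P3C and 7.29 and 7.46 with R848, so that P3C and R848 overlapped. R848 exceeded P3C in Il1a by 0.98 and in Il1b by 1.26 (adjusted p = 0.0211 for each), calls that leaving out single arrays ended. For Il1b any of the 4 arrays did so (adjusted p = 0.0654 to 0.458), and for Il1a array A of P3C (0.84, adjusted p = 0.24) or either R848 array (adjusted p = 0.131 without A and 0.0789 without B). When only the arrays compared were fitted, none of the calls between ligands at 1 or 2 h held, although the differences are the same by construction. With median scaling, the 1 h calls and the 2 h calls of Nlrp3 (0.73 against P3C, adjusted p = 0.509, and 0.85 against R848, adjusted p = 0.219), of Il1b against R848 (1.58, adjusted p = 0.171) and of R848 against P3C were lost. Several ligands shared a slide at a time, and within slides all 26 values for called differences had the same sign as the difference over both arrays, for example 2.83 for Il1a and 1.43 for Il18 between LPS and P3C at 4 h. These values reuse the arrays that gave the calls, so their sign could hardly differ and is no separate check on slide effects.

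The change of the difference from untreated cells between 1 and 4 h was tested as an interaction. For LPS, 6 members had a larger difference at 4 h, with 5.54% of all genes called higher, and 1, Nlrp3, a smaller one, with 4.48% called lower. For P3C, 4 were called higher (1.75%) and 1 lower (1.17%), and for R848, 3 higher (2.08%) and 1 lower (1.46%). Il1b grew by 2.62 with LPS (adjusted p = 3.95e-06), 1.91 with P3C (adjusted p = 0.000618) and 1.43 with R848 (adjusted p = 0.00427, limma), and Il1rn by 2.36, 2.32 and 1.9. Il1a grew by 2.35 with LPS and 1.02 with P3C, while with R848 the change was 0.62 (adjusted p = 0.0962). In the opposite direction, the Nlrp3 difference fell by 0.62 with LPS (adjusted p = 0.000575), by 0.75 with P3C (adjusted p = 0.000618) and by 0.49 with R848 (adjusted p = 0.0102, limma), on measured values of untreated arrays that were below detection at both times. With median scaling all changes called with P3C and R848 missed the threshold, as did those of Casp4 (1.63, adjusted p = 0.0608), Il1rap (0.2, adjusted p = 0.366) and Nlrp3 (-0.97, adjusted p = 0.105) with LPS. Casp1 changed by 0.69 with LPS without passing the test (adjusted p = 0.104).

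Several of these interaction calls missed the threshold when single arrays were left out, with changes of the same sign. The Casp4 changes with P3C (1.11) and R848 (1.02) were lost on leaving out 7 of the 8 arrays, one at a time. The call with P3C held only without array B of P3C at 1 h, and that with R848 only without array A of R848 at 1 h. The lost values were 0.96 to 1.16 for P3C (adjusted p = 0.0736 to 0.14) and 0.84 to 1.09 for R848 (adjusted p = 0.0765 to 0.171). Both were also lost with slide as a random block (1.08, adjusted p = 0.0996 with P3C, and 0.93, adjusted p = 0.119 with R848), and that with R848 with neqc (1.22, adjusted p = 0.0529) and without the filter on dim probes (1.02, adjusted p = 0.0548). Nlrp3 with R848 was lost without array A of R848 at 1 h (-0.47, adjusted p = 0.0504) or at 4 h (-0.45, adjusted p = 0.0527), with neqc (-0.72, adjusted p = 0.074) and with only the arrays compared (-0.49, adjusted p = 0.056). Il1rn with R848 was lost without array A of R848 at 1 h (1.72, adjusted p = 0.0657), array A of the untreated cells at 4 h (1.53, adjusted p = 0.0728) or array B of the untreated cells at 1 h (1.77, adjusted p = 0.0598). The LPS change of Il1rap, 0.36 (adjusted p = 0.0148), was lost without array B of LPS at 1 h (0.3, adjusted p = 0.0709) or 4 h (0.31, adjusted p = 0.0677), array A of the untreated cells at 4 h (0.33, adjusted p = 0.0736) or array B of the untreated cells at 1 h (0.35, adjusted p = 0.0529), and with only the arrays compared (adjusted p = 0.124).

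**Figure D5:**
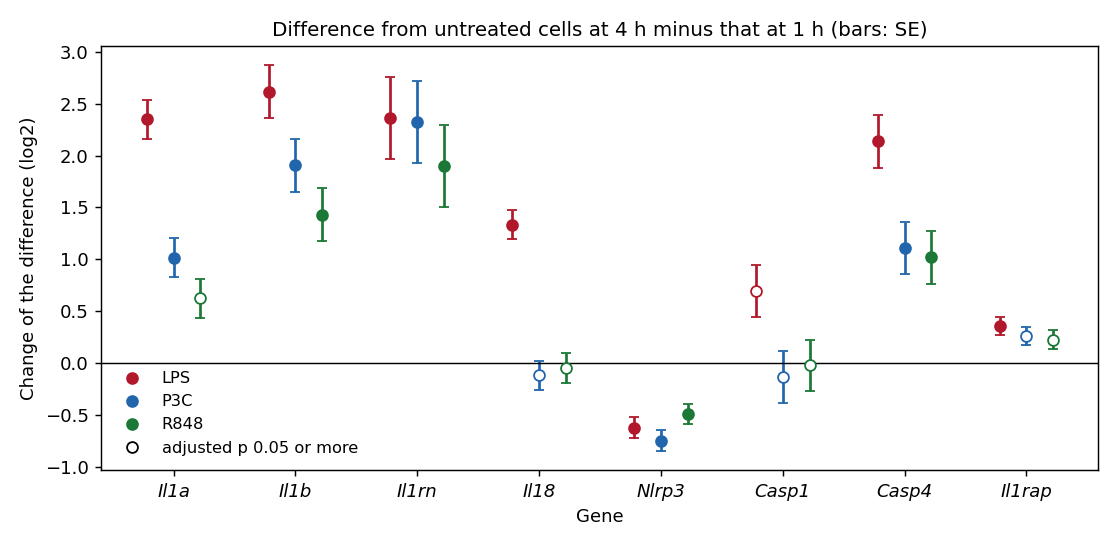
Difference from untreated cells at 4 h minus that at 1 h (log2) for each ligand and gene, with bars for the SE and open symbols for an adjusted p of 0.05 or more. Nlrp3 lies below 0 for LPS, P3C and R848, and Il1b, Il1rn and Casp4 lie above 0 for all 3.

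The wider pathway was described with 3 lists that do not contain the members. Of 9 further interleukin-1 family cytokines, receptors and binding proteins on the array only 2 were detected. Il18rap, the accessory chain of the interleukin-18 receptor, read 7.08 and 7.12 after 4 h of LPS and 6.82 and 6.77 in untreated cells, at least 1.16-fold higher (adjusted p = 0.00149, limma). Untreated arrays read 6.95 and 6.93 at 1 h and 6.93 and 6.93 at 2 h, all detected. LPS at 2 h read 7.11 and 7.11 without a call. The Il18rap call at 4 h thus depends on untreated arrays that were lower at that time. Il18bp, a soluble inhibitor of interleukin-18, gave 0.17 (adjusted p = 0.0862).

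Of 25 tested inflammasome sensors, partners and effectors, 13 were higher and 2 lower after 4 h of LPS, beside 10.8% higher and 16% lower over all genes. After P3C 4 were higher and 1 lower (5.4% and 5.43% of all genes), and after R848 4 were higher and 2 lower (6.3% and 6.38%). The median difference over this list at 4 h of LPS was 0.35. Gbp2, a guanylate-binding protein, read 10.84 and 10.77 with LPS, 7.57 and 7.59 with P3C, 7.74 and 7.71 with R848, and 6.88 and 6.87 in untreated cells at 4 h. Relative to untreated cells the bounds were at least 15.1-fold for LPS, 1.61-fold for P3C and 1.79-fold for R848. Gbp5, of the same family, was at least 4.02-fold higher with LPS and was not detected with P3C or R848, where it read 6.64 to 6.78. Nlrc5, a NOD-like receptor and regulator of MHC class I genes, was higher by 1.68 with LPS, 0.43 with P3C and 0.6 with R848. Among the genes that were lower after LPS, Gsdme, a gasdermin, was not detected after LPS and was at least 1.26-fold lower, and Nlrc3, an inhibitory NOD-like receptor, fell by 0.73 (adjusted p = 0.000422). At 1 h, where 1.73% to 2.1% of all genes were called higher and 1.29% to 1.41% lower, the list gave 1 higher and 1 lower call with LPS, and 0 higher and 1 lower with each of P3C and R848. At 2 h (3.07% to 5.52% of all genes higher and 2.41% to 6.33% lower) it gave 3 higher and 2 lower with LPS, and 0 higher and 1 lower with each of the others.

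Of 19 tested genes of interleukin-1 receptor signalling, which TLRs share through MyD88, 5 were higher and 1 lower at 1 h of LPS, 7 and 1 at 2 h, and 8 and 1 at 4 h, beside 2.1%, 5.52% and 10.8% of all genes higher and 1.41%, 6.33% and 16% lower. With P3C the counts were 4 and 1, 5 and 0, and 5 and 0 (1.73%, 3.07% and 5.4% of all genes higher and 1.29%, 2.41% and 5.43% lower), and with R848 4 and 1, 4 and 1, and 4 and 0 (2.03%, 3.34% and 6.3% higher and 1.38%, 3.24% and 6.38% lower). Peli1, an E3 ubiquitin ligase, was higher at 4 h only with LPS (2.29, adjusted p = 7.12e-06), with 0.33 for P3C and 0.29 for R848 not called. Nfkbia, which encodes the NF-κB inhibitor IκBα, was higher by 1.96 with LPS, 2.11 with P3C and 2.16 with R848 at 4 h. Tnfaip3, which encodes the ubiquitin-editing enzyme A20, was higher by 3.23 at 1 h, 2.37 at 2 h and 1.9 at 4 h of LPS. Like Nlrp3, it read highest at 1 h with each ligand, 10.23 and 10.24 for LPS, 8.61 and 8.61 for P3C, then 9.31 and 9 for R848, against 7 and 7.01 in untreated cells. Tab1, an adaptor of the TAK1 kinase, was lower after LPS at 4 h by 0.56 (difference -0.56, adjusted p = 0.0195).

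Across the 24 arrays, members differed in how their signals moved together. These correlations are descriptions, over arrays that share treatments, times and slides. Il1a and Il1b had a Pearson r of 0.934, and Il1b and Il1rn 0.913, while Casp1 and Il18 had 0.817. Nlrp3 had 0.65 to Il1b, 0.612 to Il1a and 0.388 to Il1rn. To Il18 and Casp4 it had 0.226 each, to Casp1 0.059 and to Il1rap 0.011. Among genes outside the 9, the nearest to Il1b were Acod1 (0.985), Cd40 (0.974) and Plaur (0.969), and to Il1a Cd40 (0.947), Cxcl10 (0.939) and Acod1 (0.937). The nearest to Il1rn were Slc15a3 (0.955), Irak2 (0.955) and Arhgef3 (0.95), and to Nlrp3 the early phosphatase gene Dusp2 (0.97), Cd83 (0.935) and Dusp4 (0.927). Casp4 lay nearest to Ifi35 (0.972), Scimp (0.964) and Ccl2 (0.963), and Il18 to Ifi214 (0.964), Il15ra (0.961) and Sp140 (0.959). For Casp1 they were Cd300lf (0.944), Vps54 (0.932) and Prnp (0.916), and for Il1rap Rtp4 (0.927), Dock10 (0.92) and Daxx (0.917).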

How the data were processed

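RNA from RAW264.7 cells was hybridised by the authors to Illumina BeadChip arrays, and the deposited table holds for each of 45281 probes a summarised intensity, before normalization, and a detection p-value against negative controls, from GenomeStudio 2011.1. The deposited log2 values, quantile-normalized by the authors for 23937 of these probes, served as an alternative, and 99.9993% of them lay within 0.001 of the values computed here. Here all intensities were quantile-normalized without background correction and log2-transformed in R 4.3.3. Probes were kept (14119) if some group had both arrays at a detection p under 0.01, and the brightest probe stood for a gene (8622 genes). Gene symbols came from the platform's probe table, with 16512 probes updated or checked by gene identifier and 1422 by accession, 534 symbols changed and 2035 probes not matched.

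A single limma 3.58.1 fit of 12 group means over all 24 arrays gave the differences, with Benjamini-Hochberg adjustment over all 8622 genes in each of 21 comparisons. With 2 arrays per group of 1 line, p-values rest on 1 spread per gene, taken over the duplicates of all 12 groups and moderated over genes. It need not match the spread within the groups compared. The number of duplicates limits the precision. Where both arrays of the dimmer group missed detection, a fold is a lower bound against the lowest signal among detected probes. The procedure was tested on simulated data with independent noise on each array and no slide effect, so that test does not cover slides. The 9 genes and the pathway lists were chosen with earlier results of these data known. Named were the 9 genes, in each list up to 3 called genes with the largest LPS difference at 4 h and any called in the opposite direction, and the 3 genes most correlated with each member. Alternatives were neqc background correction (offset 16), median scaling, the authors' table, no filter, a detection limit of 0.05, the mean of all detected probes, only the arrays compared, pooled untreated arrays, blocks for replicate letter and slide, and leaving out each array. Promoters were searched in Python 3.11.15, and figures drawn with matplotlib 3.10.9.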

Additional observations from a re-analysis of the deposited data

Results flagged for a closer look

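The results listed here are those in which the difference between ligand-treated and untreated cells itself changed between 1 and 4 h of treatment, by the limma interaction test at an adjusted p under 0.05. With LPS the difference grew by 2.615 for Il1b, 2.363 for Il1rn, 2.349 for Il1a, 2.137 for Casp4, 1.334 for Il18 and 0.356 for Il1rap, on the log2 scale. With P3C it grew by 2.322 for Il1rn, 1.906 for Il1b, 1.11 for Casp4 and 1.017 for Il1a. With R848 it grew by 1.898 for Il1rn, 1.428 for Il1b and 1.018 for Casp4. The Nlrp3 difference became smaller, with a change of -0.623 for LPS, -0.747 for P3C and -0.492 for R848. Each value has 2 arrays per group. Groups of 2 arrays are too small to test for single outlying arrays.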

How the results depend on the processing

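No difference of a member changed sign on a called result under any alternative. Leaving aside single arrays, 1508 of the member results stayed on their side of the threshold in the same direction, 62 were no longer called and 14 became called. On leaving out 1 array each, 718 stayed and 50 were no longer called. Counts of members called that moved by over 1.5 times are given here, and the cause was not tested. With median scaling the counts were 2 for P3C at 2 h (4 with quantile normalization), 0 at 1 h and 2 at 4 h for LPS against P3C (2 and 6), 1 at 2 h and 2 at 4 h for LPS against R848 (3 and 5), 0 at 1 and 2 h for R848 against P3C (1 and 2), and 4, 0 and 0 for the change from 1 to 4 h with LPS, P3C and R848 (7, 5 and 4). With only the arrays compared they were 1 for P3C (4) and 2 for R848 (4) at 2 h, and 0 for LPS against P3C at 1 and 2 h (2 and 3), LPS against R848 at 2 h (3), and R848 against P3C at 1 and 2 h (1 and 2). With neqc the change with R848 gave 2 (4), with the mean of all detected probes LPS against R848 at 1 h gave 1 (0), and with slide as a random block (correlation 0.602) R848 against P3C gave 2 at 1 h (1) and 1 at 4 h (0).

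Leaving out 1 array each gave 2 to 3 members for the change with R848, 1 to 2 for LPS against P3C at 1 h, and 0 to 1 for R848 against P3C at 1 h and at 2 h. For R848 against P3C at 4 h it gave 0 to 0, and for LPS at 4 h 8 to 8. The labels do not say whether a replicate letter marks a shared batch. Deviations of same-letter arrays correlated between -0.647 and 0.847 (median 0.223), over 0.1 in 38 of 66 pairs of groups. The replicate block changed no member call and moved no count over all genes by over 1.5 times. Over all genes, median scaling moved the count by over that in 19 of 21 comparisons (0 to 379 genes against 2 to 1093), fitting only the arrays compared in 14 of 21 (0 to 316 against 2 to 1022), pooling untreated arrays in 7 of 9 (542 to 1646 against 260 to 1093), slide as a random block in 9 of 21 (4 to 1612 against 0 to 501), and leaving out an array in 48 of 96 (0 to 692 against 2 to 1093).

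Median scaling also moved the median of all genes, to -0.328 for LPS against untreated cells at 4 h, -0.273 for LPS against P3C and -0.236 for LPS against R848 at 4 h, -0.123 for R848 against untreated cells, 0.155 for LPS against R848 and -0.118 for R848 against P3C at 2 h, and -0.401 and -0.122 for the change with LPS and P3C. Other medians of all genes stayed within 0.1 of 0. With it the share of called genes that were higher was 92.8% for LPS at 1 h (59.7% with quantile normalization), 75.2% at 2 h (46.6%) and 18.5% at 4 h (40.4%), 87.5%, 71.7% and 62.3% for P3C (57.3%, 56% and 49.9%), 83.1% for R848 at 1 h (59.5%), and 30.9% and 74.1% for the change with LPS and R848 (55.3% and 58.7%). Signal over background limits Pycard and Il1rap, and untreated Il1a, Il1b and Nlrp3. Untreated Il18, at 7.09 to 7.33, lay close above the detection level.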
